A study of Mus musculus with 32 samples.

Results

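The Toll-like receptors are a family of innate immune receptors, and Cd14 encodes the co-receptor that hands bacterial lipopolysaccharide to one of them. The 10 genes described here are Tlr1 to Tlr9 and Cd14. The rule takes them by gene symbol in the array's annotation and uses no measured value, although the set was proposed with earlier results of these data known. They had 14 of the 55681 probes, and 8 of the 10 genes were among the 21073 genes that passed the filter on dim signals. Tlr3 and Tlr8 did not pass it.

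Livers of male C57/BL6 mice, 8 weeks old at the start, were profiled on 32 arrays, 4 mice in each of 8 groups. Mice received chow (C) or a diet deficient in methionine and choline (MCD) for 3 weeks, and this diet is a model of steatohepatitis. The M+Fc-GLP-1 and C+Fc-GLP-1 mice were also given Fc-GLP-1, a glucagon-like peptide-1 fused to an antibody Fc part, every other day for the last 2 weeks, and by the study's methods C and MCD mice received vehicle. The labels conflict on the drug. The source names of the drug-treated groups give Fc-GLP-1, other labels name a dual agonist of GLP1R and GCGR at 4.4 mg/kg/day, and for C+Fc-GLP-1 after PH the source name gives Fc-GLP-1 before surgery and a dual agonist after it. The 4 groups named "before PH" were collected at that point. The 4 groups named "after PH" had 70% of the liver removed (partial hepatectomy), kept their diet and, by the study's account, their treatment, and were collected 2 weeks later, so they hold surviving mice only. The MCD diet lacks both nutrients at once, and it cannot be told from the labels whether a liver before PH and one after PH came from the same mouse. The study describes samples before PH as tissue taken at the surgery, and the titles of the C and MCD samples repeat the same numbers at both times, but no label names an animal. Same-numbered arrays before and after PH did not deviate together, with a mean correlation of 0.0126.

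Toll-like receptors share a cytoplasmic TIR domain through which they recruit the adaptors Myd88, Tirap or Ticam1 and activate NF-kB and interferon regulatory factors. Tlr2 pairs with Tlr1 or Tlr6 at the cell surface to sense bacterial lipopeptides, Tlr4 acts with Ly96 and Cd14 to sense lipopolysaccharide, and Tlr5 senses flagellin. Tlr3, Tlr7, Tlr8 and Tlr9 sense nucleic acids in endosomes. The liver drains blood from the gut, and its resident macrophages, the Kupffer cells, meet these microbial products early, although hepatocytes, sinusoidal endothelium and stellate cells also carry some of the receptors.

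Signals are given as log2 intensity minus the 75th percentile of the same array, so 0 is the level of that percentile and 1 unit is a factor of 2. A signal was called measured where the scanner software found it well above background. The 75th percentile lay between 209.4 and 778.43 intensity units, and 36.28 to 69.16% of probes were measured per array. The 7 hepatocyte markers tested summed to 1946 to 4912 times the 75th percentile on every array. MCD and C before PH shared a slide, as did the 2 drug-treated groups at each time. Every other comparison crossed slides, and C after PH and MCD after PH each had a slide of its own on another scanner, so for these group and slide cannot be told apart. The array of C after PH replicate 1 stood apart, with a median correlation of 0.949 to the other arrays of its group against 0.968 to 0.983 on all other arrays. Its Cd14 signal and that of C+Fc-GLP-1 after PH replicate 1 lay far above the rest of their groups, and the main values they touch are given with and without them.

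The array probes for Tlr1 and Tlr2 are shown because both genes passed the diet test before PH and their proteins pair with each other. Both read part of the coding sequence close to its 3′ end, at chr5:65316115-65316174 and chr3:83640344-83640403 on the minus strand of mm9, as the scanner files place them. The capitals mark the longest run of bases that the 2 probes share, 7 of 60 bases.

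Tlr1: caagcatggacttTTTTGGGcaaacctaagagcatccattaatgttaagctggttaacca
Tlr2: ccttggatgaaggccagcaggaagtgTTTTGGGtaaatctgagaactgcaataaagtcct

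The Tlr1 and Tlr6 probes, whose genes are neighbours on chromosome 5 and close paralogs, shared no run over 5 bases. Probes were compared only with each other, so a match of a probe to another gene's transcript was not checked. No member spot was saturated on any array.

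Before PH, the MCD diet went with higher signals of the lipopeptide receptors and lower signals of Tlr5 and Tlr9. Of the 8 genes tested, 5 passed the threshold (limma, Benjamini-Hochberg adjusted p under 0.05), 3 higher and 2 lower in MCD than in C. Over all genes tested, 26.4% passed, 10.9% higher and 15.5% lower. The median log2 fold change was 1.17 over the 8 genes and -0.13 over all genes.

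**Figure D1:**
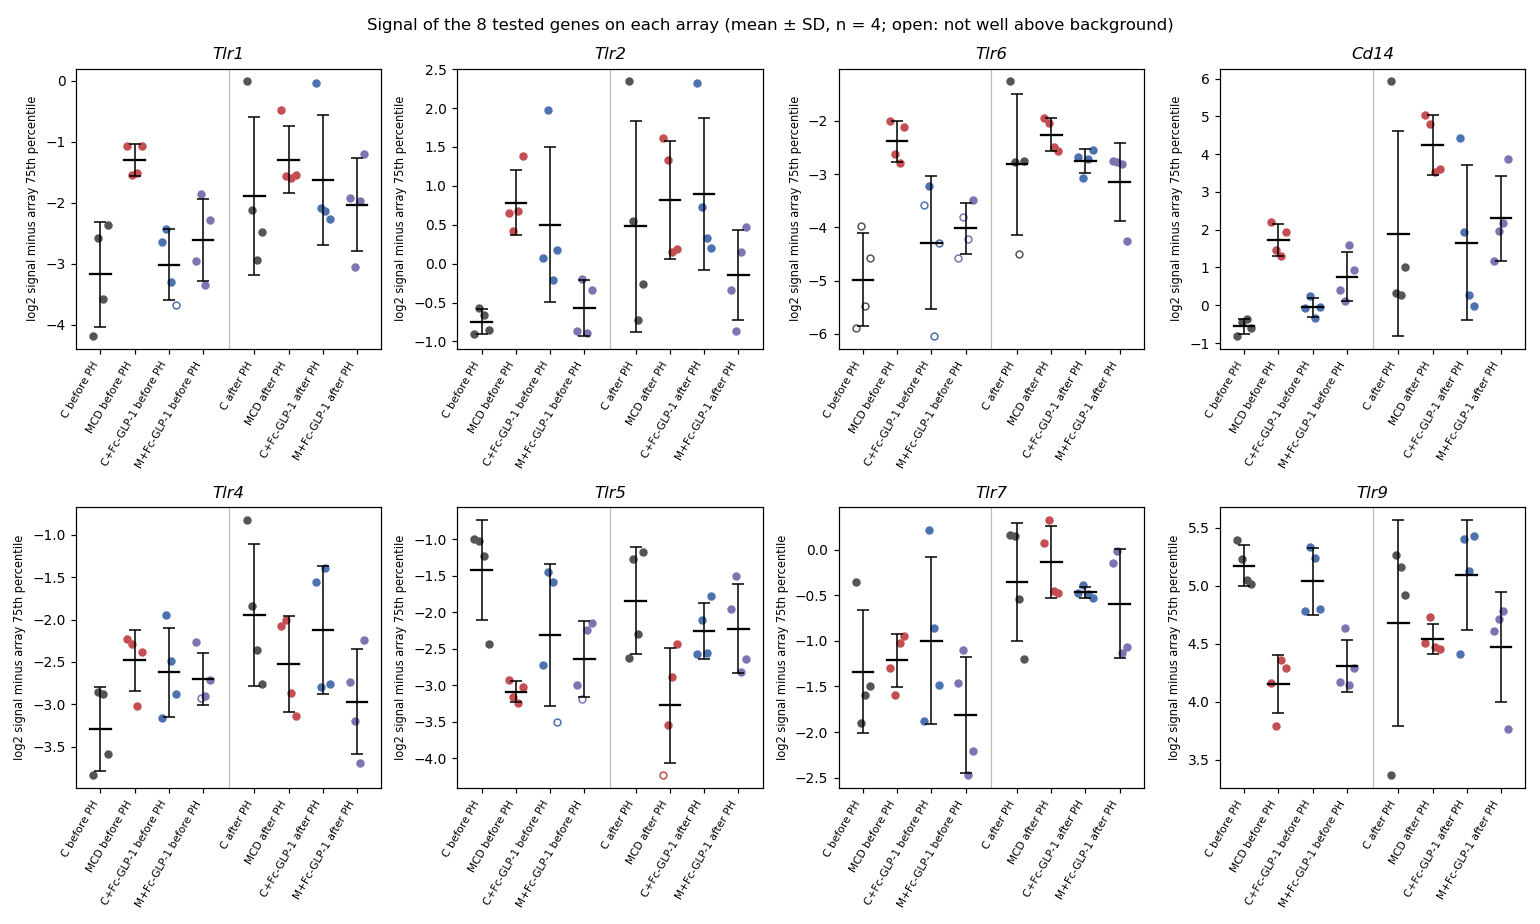
Log2 signal minus the array's 75th percentile (y) for the 8 tested genes in the 8 groups (x), 1 point per array, with the mean and SD of 4 arrays. Open points were not well above background. The 4 MCD arrays lie above the 4 C arrays before PH for Tlr1, Tlr2, Tlr6 and Cd14 and below them for Tlr5 and Tlr9, and 1 array of C after PH reaches 5.93 for Cd14.

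Tlr2, the receptor common to both lipopeptide pairs, read -0.91, -0.57, -0.66 and -0.85 in C and 0.65, 0.42, 0.67 and 1.39 in MCD. The 2 groups did not overlap. The mean signal was -0.75 ± 0.16 (SD, n = 4) in C and 0.78 ± 0.42 (SD, n = 4) in MCD, a log2 fold change of 1.53 ± 0.53 (SE; limma adjusted p = 0.0315), or 2.89-fold. The call was lost without C before PH replicate 1 or 4 or without MCD before PH replicate 1, 3 or 4, with log2 fold changes of 1.33 to 1.57 and adjusted p-values of 0.0502 to 0.0947. It was also lost with normexp background correction and quantile normalization (1.18, adjusted p = 0.0725) and with the authors' normalized values (1.16, adjusted p = 0.0833).

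Tlr1, its partner for triacylated lipopeptides, read -4.19, -2.57, -3.58 and -2.37 in C and -1.08, -1.55, -1.52 and -1.07 in MCD. All MCD arrays were higher than all C arrays. The log2 fold change was 1.87 ± 0.54 (SE; limma adjusted p = 0.011), or 3.67-fold. Without C before PH replicate 1 it was 1.54 (adjusted p = 0.0535).

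Tlr6, its partner for diacylated lipopeptides, was not well above background on any of the 4 C arrays, where it read -5.89, -3.97, -5.49 and -4.58. It was measured on all 4 MCD arrays, at -2.01, -2.61, -2.80 and -2.12. With the scaling used here, the signal was at least 4.48-fold higher in MCD, set against the lowest measured signal of each C array. The measured means of -4.98 and -2.39 differed by a log2 fold change of 2.60 (limma adjusted p = 0.000738). With normexp background correction and quantile normalization, the log2 fold change was 0.83 for Tlr6 (adjusted p = 0.00265) and 1.16 for Tlr1 (adjusted p = 0.0109). The Tlr6 value lay below 4.48-fold, so that bound does not hold across processing.

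Cd14 read -0.81, -0.44, -0.36 and -0.60 in C and 2.19, 1.47, 1.30 and 1.94 in MCD. The groups did not overlap and the log2 fold change was 2.28 ± 0.87 (SE), but the limma adjusted p was 0.051. The fit over all 32 arrays carries the wide spread of Cd14 after PH into this comparison, and a fit on the 8 arrays of C and MCD before PH alone gave an adjusted p of 0.000262. Tlr4, the lipopolysaccharide receptor itself, read between -3.84 and -2.86 in C and between -3.01 and -2.23 in MCD. These ranges overlapped, with a log2 difference of 0.81 ± 0.40 (SE; limma adjusted p = 0.13).

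Tlr5, the flagellin receptor, fell. It read -0.99, -1.03, -1.24 and -2.44 in C and -2.92, -3.16, -3.25 and -3.02 in MCD. Every MCD array lay below every C array, the log2 fold change was -1.66 ± 0.44 (SE; limma adjusted p = 0.006), and the signal was 3.16-fold lower in MCD.

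Tlr9, the endosomal receptor for unmethylated CpG DNA, read 5.40, 5.23, 5.05 and 5.02 in C and 4.16, 3.79, 4.36 and 4.29 in MCD. The groups did not overlap. The Tlr9 mean in C was 5.17, while every other tested member had a mean of -0.55 or lower there. Whether its single probe also reads another transcript was not checked, so the level and the difference are those of the probe. The log2 fold change was -1.02 ± 0.30 (SE; limma adjusted p = 0.0138), and it was -0.66 (adjusted p = 0.124) with arrays centred on their median, a scaling that moves the median of all genes from -0.13 to 0.24 in this comparison.

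Several macrophage markers were higher in MCD, as Tlr1, Tlr2 and Tlr6 were, in a comparison where 10.9% of all genes were higher past the threshold. Of 8 pan-macrophage markers, 5 rose, among them Adgre1 (log2 fold change 1.57) and Cd68 (1.96), while Itgam fell (-1.56). The summed signal of the 8 was 35.8 to 55.6 times the 75th percentile on the C arrays and 54.9 to 141 times on the MCD arrays. Of 7 resident Kupffer cell markers 4 rose, including Clec4f (1.29) and Vsig4 (2.30), and of 7 markers of recruited monocytes and macrophages 5 rose, including Cx3cr1 (2.16) and Itgax (2.90). The sums of the recruited list overlapped, at 179 to 228 on the C arrays and 192 to 336 on the MCD arrays. The neutrophil genes S100a8 (3.06) and S100a9 (2.57) also rose, with 3 of 10 neutrophil markers past the threshold, although Ly6g was not one of them. Beside the lower Tlr9, of 6 B cell markers Cd79a (-1.15) and Cr2 (-1.23) fell, and the 6 summed to 2.05 to 3.05 on the C arrays and 1.02 to 1.95 on the MCD arrays. Other lists had lower sums too. The 6 dendritic cell markers summed to 186 to 228 on the C arrays and 136 to 197 on the MCD arrays. For the 5 T and NK cell markers the sums were 69.8 to 150 and 16.4 to 20.3, and most of each sum was Cd4. Its mean log2 signal was 6.48 in C and 3.82 in MCD, while the next brightest in C, Nkg7, had 1.64. Cd4 (-2.66) and Cd3e (-1.12) fell, Klrb1c (1.45) rose, and Cd3g (0.64) and Nkg7 (-0.38) did not pass the threshold. Of 7 hepatocyte markers, 3 fell. In whole liver, more cells of a type and more RNA per cell cannot be told apart, and the part of any cell type in the receptor signals was not tested.

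Short stretches of RefSeq promoters (GRCm38.p6) that matched a motif are shown for Tlr1, Tlr2, Tlr6 and Tlr9, which passed the diet test, the first 3 higher and Tlr9 lower in MCD. Sequences were given for 7 of the 10 genes, and the 250 bases before each start were searched on both strands for the PU.1 core GAGGAA, the AP-1 core TGANTCA, the C/EBP core TTGCNNAA and the cores of NF-kB and ISRE. Of 32851 promoter entries, 4.65% held the NF-kB letters, 23.3% PU.1, 2.98% ISRE, 6.75% AP-1 and 9.56% C/EBP. Capitals mark the match, and the Tlr6 ISRE window holds 2 overlapping matches. The windows are 30 bases long, on the gene's own strand.

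Tlr1 PU.1, chr5:64933564-64933593, minus: aattaaatgttgGAGGAAgtaggagcttga
Tlr2 NF-kB, chr3:83841762-83841791, minus: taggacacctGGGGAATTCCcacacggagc
Tlr6 ISRE, chr5:64959260-64959289, minus: ctattctTTTCTCTTTCACTTTCtgtttga
Tlr6 C/EBP, chr5:64959237-64959266, minus: tgtttgatgtaTTAAGCAAattcttattgt
Tlr6 NF-kB, chr5:64960128-64960157, minus: tttatacacgGGGTAATTCCaacgagtacc
Tlr9 PU.1, chr9:106222474-106222503, plus: ggagagtggaaaGAGGAAggggttgagggg
Tlr9 AP-1, chr9:106222528-106222557, plus: gcaaatgatgtgTGACTCAttgtaccacct

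The Tlr6 ISRE and C/EBP matches belong to one listed start of the gene and the NF-kB match to another. Tlr3 (NF-kB and C/EBP) and Tlr8 (PU.1 and C/EBP), which were not tested for expression, also held matches. Tlr5 held none of the 5 motifs in this window. A match of letters is a description and not evidence of a bound site.

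Tlr7, an endosomal receptor for single-stranded RNA, gave different answers by probe. Its brightest probe, at position 3686 of the transcript, read -1.34 ± 0.68 (SD, n = 4) in C and -1.21 ± 0.29 (SD, n = 4) in MCD before PH, with a log2 fold change of 0.12 (limma adjusted p = 0.848). A second probe at position 3403 read -5.10, -3.29, -3.84 and -4.23 in C, measured on 2 of 4 arrays, and -1.31, -2.80, -1.78 and -1.65 in MCD, measured on all 4. With every kept probe tested on its own, an alternative added after the values were seen, its log2 fold change was 2.23 ± 0.52 (SE; limma adjusted p = 0.00252). One more Tlr7 probe, at position 211, was measured on 0 of 32 arrays. With the 2 kept probes averaged, Tlr7 passed the threshold before PH at an adjusted p of 0.0123, so the call for Tlr7 depends on the probe.

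**Figure D2:**
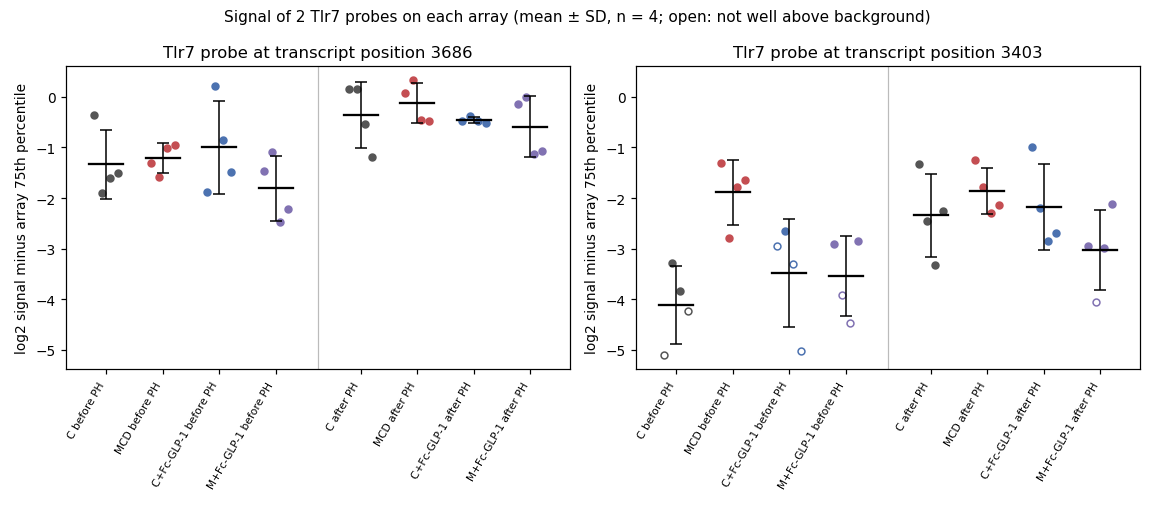
Log2 signal minus the array's 75th percentile (y) of 2 Tlr7 probes, named by their position in the transcript, in the 8 groups (x), 1 point per array with mean and SD of 4. The probe at position 3403 separates C from MCD before PH and the probe at position 3686 does not.

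Tlr3, the receptor for double-stranded RNA, was measured on 10 of 32 arrays and on no group's full set of 4, reading between -5.47 and -2.37. The 2 Tlr8 probes were measured on 0 and 2 of 32 arrays. Differences of these genes between groups were not detectable at this signal, which is no statement that they are absent from liver.

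The same diet comparison under Fc-GLP-1 (M+Fc-GLP-1 against C+Fc-GLP-1 before PH) gave no calls among the 8 genes by limma, while 10.4% of all genes passed, 5.35% higher and 5.01% lower. At an unadjusted p under 0.05 there were 3, each lower in M+Fc-GLP-1. Tlr9 was one, at 4.78, 5.34, 5.24 and 4.80 in C+Fc-GLP-1 and 4.17, 4.63, 4.14 and 4.29 in M+Fc-GLP-1. These 2 groups did not overlap either, and the log2 difference was -0.73 ± 0.30 (SE; limma adjusted p = 0.126). Cd14 differed by 0.82 (95% interval -0.95 to 2.59), Tlr1 by 0.40 and Tlr6 by 0.27, with overlapping arrays in each case. The 6 B cell markers summed to 1.99 to 3.01 in C+Fc-GLP-1 and 1.03 to 1.70 in M+Fc-GLP-1, and their part in the Tlr9 values was not tested. Tlr6 was measured on 1 of 4 arrays in each of these groups.

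**Figure D3:**
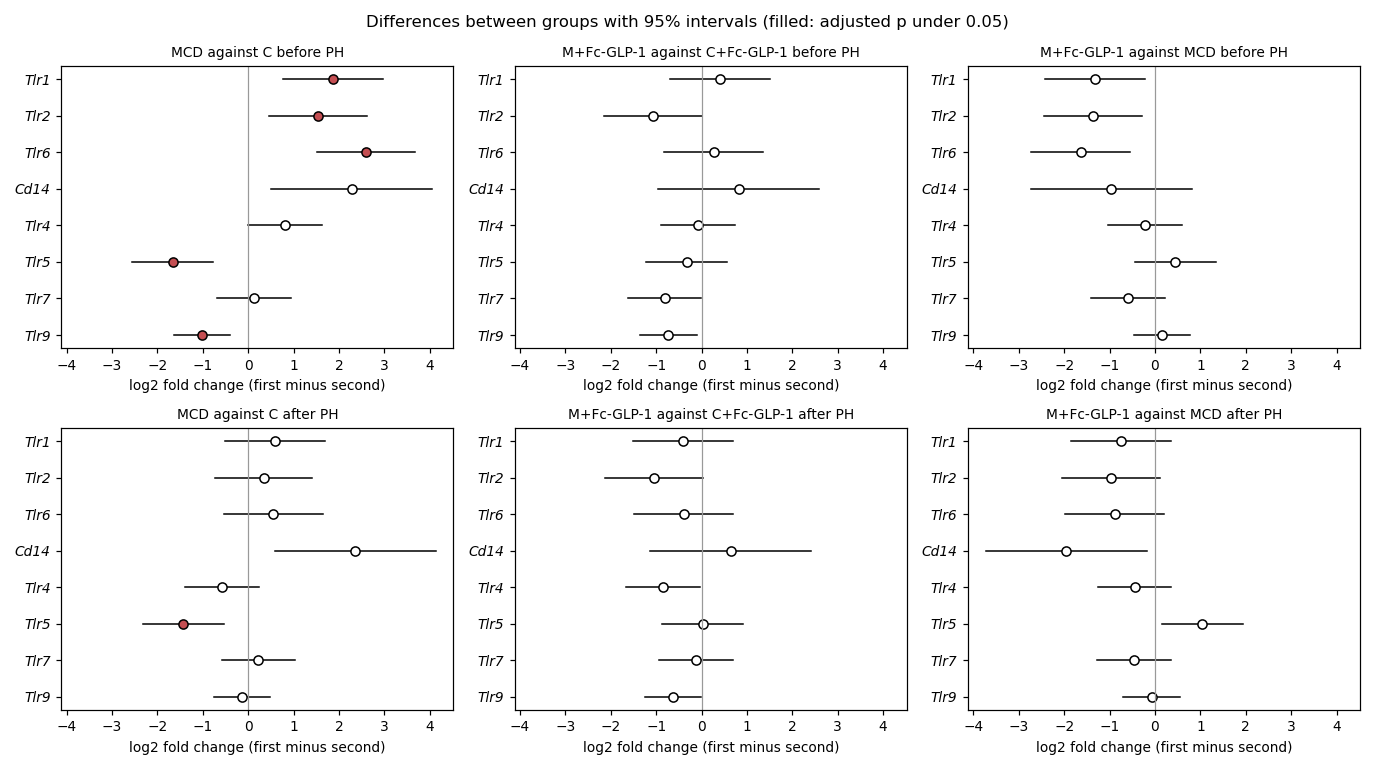
Log2 fold change (x, first group minus second) of the 8 genes (y) in 6 comparisons, with 95% intervals from limma. Filled points passed an adjusted p under 0.05. The 5 genes filled in MCD against C before PH are not filled in M+Fc-GLP-1 against C+Fc-GLP-1 before PH, although Tlr9 is lower in both.

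Whether the diet effect differed with the drug was tested as an interaction. Additive slide differences cancel in it, since each diet pair shared a slide. Tlr2 alone of the 8 passed, at an interaction of -2.61 ± 0.74 (SE; limma adjusted p = 0.0366), beside 6.15% of all genes, 2.56% negative. Mean Tlr2 signals were -0.75 and 0.78 on chow and the MCD diet without the drug, and 0.50 and -0.58 with it. The C+Fc-GLP-1 arrays read 0.08, 1.97, -0.21 and 0.17, and without the array at 1.97 (replicate 2) the interaction was -2.12 (adjusted p = 0.0812). Leaving out C replicate 1 or 4, MCD replicate 1, 3 or 4, or M+Fc-GLP-1 replicate 1 or 3, all before PH, also ended the call, with interactions of -2.41 to -2.65 and adjusted p-values of 0.054 to 0.0666. Tlr6 had an interaction of -2.33 ± 0.75 (SE; limma adjusted p = 0.0598), Tlr1 -1.47 (adjusted p = 0.236) and Cd14 -1.46 (adjusted p = 0.491). For Tlr5 it was 1.33 (adjusted p = 0.188) and for Tlr9 0.29 (adjusted p = 0.718). Among the macrophage markers, 3 of 8 pan-macrophage and 4 of 7 Kupffer cell genes had negative interactions past the threshold.

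Set directly against each other, M+Fc-GLP-1 and MCD before PH lay on different slides. None of the 8 genes passed by limma, with 3 at an unadjusted p under 0.05, while 7.22% of all genes passed. Those 3 were the lipopeptide receptors. Tlr6 read -4.58, -3.80, -4.21 and -3.48 in M+Fc-GLP-1, all below the 4 MCD arrays, and the log2 difference was -1.63 ± 0.53 (SE; limma adjusted p = 0.0573). Tlr2 read -0.87, -0.20, -0.89 and -0.33 in M+Fc-GLP-1, likewise below every MCD array, for a difference of -1.36 (adjusted p = 0.109), and Tlr1 differed by -1.31 (adjusted p = 0.13). A fit on these 8 arrays alone called all 3, with adjusted p-values of 0.0165, 0.0238 and 0.042. Of the macrophage markers, 4 of 8 pan-macrophage genes and 4 of 7 Kupffer cell genes were lower in M+Fc-GLP-1 past the threshold.

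In chow-fed mice before PH, again across slides, C+Fc-GLP-1 against C gave no calls among the 8 genes by limma, with 1 at an unadjusted p under 0.05, and 2.11% of all genes passed. That gene was Tlr2, with a log2 difference of 1.25 ± 0.53 (SE; limma adjusted p = 0.198).

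After PH, Cd14 was the gene with the widest values. It read 5.93, 0.34, 0.28 and 1.02 in C and 5.05, 4.81, 3.53 and 3.60 in MCD. With the drug it read 4.44, 1.95, 0.26 and -0.01 on chow and 1.16, 1.98, 2.18 and 3.87 on the MCD diet. In each chow group the array of replicate 1 was above the other three, at 5.93 and 4.44. For MCD against C the log2 difference was 2.36 ± 0.87 (SE; limma adjusted p = 0.0742), and without C after PH replicate 1 it was 3.70 (adjusted p = 0.00028). From before to after PH in C, Cd14 differed by 2.44 ± 0.87 (SE; limma adjusted p = 0.0569), and by 1.10 without that array (adjusted p = 0.332). In C+Fc-GLP-1 against C after PH the difference was -0.23 (adjusted p = 0.943), and it was 1.11 without C after PH replicate 1 and -1.16 without C+Fc-GLP-1 after PH replicate 1. MCD after PH had the highest mean of the 8 groups, 4.25 ± 0.79 (SD, n = 4), and M+Fc-GLP-1 after PH the next, 2.30 ± 1.14 (SD, n = 4), with 1 array of the latter inside the range of the former. The log2 difference between these 2 groups was -1.95 ± 0.87 (SE; limma adjusted p = 0.179). Of the 10 neutrophil markers tested, 5 were higher in MCD than in C after PH and 8 were lower with the drug than without it on the MCD diet. Over all genes, 12.1% passed the threshold in the first comparison, 6.04% higher, and 6.5% passed in the second. Both comparisons crossed slides, so group and slide cannot be told apart in them. The 10 neutrophil markers summed to 139 to 326 times the 75th percentile in MCD after PH, 98.8 to 117 in C and 71.6 to 127 in M+Fc-GLP-1, and their part in the Cd14 values was not tested.

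The array C after PH replicate 1 also had the highest signals of its group for Tlr1 (-0.01), Tlr2 (2.34), Tlr4 (-0.83) and Tlr6 (-1.26) and the lowest for Tlr9 (3.37) and Tlr5 (-2.63). The summed signal of the 8 pan-macrophage markers was 304 times the 75th percentile on it, against 70.1 to 163 on the other arrays of the group, and that of the 7 hepatocyte markers was 1946, against 2824 to 3954. The part of these cell types in its values was not tested.

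Between the diets after PH, 1 of 8 genes passed in MCD against C, lower, beside 12.1% of all genes, 6.04% higher and 6.08% lower. It was Tlr5, which read -2.63, -1.27, -2.30 and -1.17 in C and -4.23, -3.54, -2.89 and -2.43 in MCD. The highest MCD array lay above the lowest C array, and the MCD array at -4.23 was not well above background. The log2 fold change was -1.43 ± 0.44 (SE; limma adjusted p = 0.0297), and the call was lost without MCD after PH replicate 1 (-1.11, adjusted p = 0.131) or 2 (-1.34, adjusted p = 0.0851) and without C after PH replicate 2 (-1.24, adjusted p = 0.105) or 4 (-1.21, adjusted p = 0.112). Tlr1, Tlr2 and Tlr6 had differences of 0.60, 0.34 and 0.56, none past the threshold. Without C after PH replicate 1, which had the highest signal of its group for each, they were 1.22, 0.96 and 1.08 (adjusted p = 0.104, 0.199 and 0.179). C after PH and MCD after PH lay on different slides.

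On the shared slide after PH, M+Fc-GLP-1 against C+Fc-GLP-1 gave no calls among the 8 by limma, 2 at an unadjusted p under 0.05 (Tlr4 and Tlr9, both lower in M+Fc-GLP-1), and 12.8% of all genes passed. With both arrays numbered 1 of the chow groups left out, chosen after the values were seen, Tlr9 went from -0.62 (adjusted p = 0.195) to -0.85 (adjusted p = 0.0131) and Cd14 from 0.64 (adjusted p = 0.718) to 1.57 (adjusted p = 0.0347). With C+Fc-GLP-1 after PH replicate 1 alone left out the same differences had adjusted p-values of 0.0811 and 0.254. Of the 6 B cell markers, 3 were lower in M+Fc-GLP-1, and their part in the Tlr9 values was not tested. The drug comparisons after PH gave no calls among the 8 by limma. For C+Fc-GLP-1 against C there were 0 at an unadjusted p under 0.05 and 2.06% of all genes passed, and for M+Fc-GLP-1 against MCD there were 2 (Cd14, and Tlr5 with 1.05) and 6.5% passed. The diet by drug interaction after PH had 1 of 8 at an unadjusted p under 0.05 (Tlr5, 1.46) and no call, with 0% of all genes called.

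From before to after PH, each group was compared across slides. In C, 2 of 8 genes passed, both higher, while 14% of all genes passed, 6.09% higher. The second Tlr7 probe, at position 3403, also passed when tested on its own (1.77, adjusted p = 0.0239), while the probe that stands for Tlr7 did not (0.98, adjusted p = 0.0935). Tlr4 read -3.84, -2.86, -2.88 and -3.58 before and -0.83, -1.84, -2.35 and -2.76 after PH, with no overlap and a log2 fold change of 1.34 ± 0.40 (SE; limma adjusted p = 0.0233). Tlr6, not measured on any C array before PH, was measured on 3 of 4 after it. With the scaling used here and all arrays, Tlr6 was at least 3.33-fold higher, with measured means of -4.98 and -2.82 (limma adjusted p = 0.00747). That bound does not hold across processing, since the Tlr6 log2 fold change ran from 0.77 to 2.73 over 16 alternatives. Without C after PH replicate 1 the log2 fold changes were 0.97 for Tlr4 (adjusted p = 0.128) and 1.65 for Tlr6 (adjusted p = 0.0516), so neither call held without that array. The Tlr4 call was also lost without C before PH replicate 1 (1.16, adjusted p = 0.0756) or 4 (1.25, adjusted p = 0.0606) and without C after PH replicate 2 (1.31, adjusted p = 0.0502). Of the macrophage markers, 6 of 8 pan-macrophage and 6 of 7 Kupffer cell genes were higher after PH past the threshold.

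The other groups had no calls among the 8 by limma over time. In MCD there were 2 at an unadjusted p under 0.05, Cd14 and Tlr7, while 9.43% of all genes passed. Each was higher on all 4 arrays after PH than on all 4 before, Cd14 by 2.52 ± 0.87 (SE; limma adjusted p = 0.064) and Tlr7 by 1.08 ± 0.40 (SE; limma adjusted p = 0.0835). The second Tlr7 probe, at position 3403, differed by 0.02 over the same time (adjusted p = 0.989), so the Tlr7 difference rests on 1 probe. In C+Fc-GLP-1 there were 2 at an unadjusted p under 0.05, Tlr1 and Tlr6, while 0.835% of all genes passed, and in M+Fc-GLP-1 there was 1, Tlr7, while 1.71% passed. For the diet by time interaction under Fc-GLP-1, in which additive slide differences cancel, there were 0 at an unadjusted p under 0.05 and no calls by limma, and 0.0949% of all genes passed.

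Of 40 listed genes of the rest of the pathway 37 were tested, and in MCD against C before PH 8 rose and 3 fell. Over all genes 26.4% were called, 10.9% higher and 15.5% lower. The total of the listed genes was thus near the background, but more of them rose than fell. Those that rose included Cd36, a scavenger receptor that can act with Tlr2 and Tlr6 (2.21), the mouse receptors Tlr12 (1.71) and Tlr13 (2.18), and the inhibitors of NF-kB signalling Tnfaip3 (2.38) and Tnip1 (1.29). The adaptors Tirap (-1.03) and Myd88 (-0.57) and the chaperone Hsp90b1 (-1.20), which folds Toll-like receptors, fell. The median over the 37 was 0.19, against -0.13 over all genes. Lbp, which delivers lipopolysaccharide to Cd14, was not among the genes called.

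Under Fc-GLP-1 before PH, 3 of the 37 pathway genes were higher with the MCD diet and 4 lower, beside 10.4% of all genes called. Tlr12 (1.63), Cd36 (1.81) and Tab1 (0.91) were higher, and Irf5, a transcription factor downstream of Myd88 (-2.22), Tirap (-1.53), Traf3 (-1.15) and Unc93b1, which escorts the endosomal receptors (-0.76), were lower. Tlr12, Cd36 and Tirap thus passed in the same direction with and without the drug. Where both MCD-fed groups were set side by side before PH, M+Fc-GLP-1 had lower Cd36 (-1.56), Irf5 (-1.11) and Ikbkg (-0.99), and no pathway gene was higher past the threshold, beside 7.22% of all genes called. After PH, where 12.1% of all genes were called between the diets without the drug, Cd36 (2.22), Sigirr, an inhibitor of the receptors (1.22), and Ticam1 (0.80) were higher in MCD than in C. With the drug on the MCD diet after PH, Cd36 (-1.79) and Irak3 (-1.58) were lower, beside 6.5% of all genes called. From before to after PH, Lbp (1.91) and Cd36 (1.49) rose in MCD, beside 9.43% of all genes called. In C over the same time 4 pathway genes rose (Ly86, Tnfaip3, Tlr13 and Cd36) and Ticam1 fell (-1.11), beside 14% of all genes called.

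**Figure D4:**
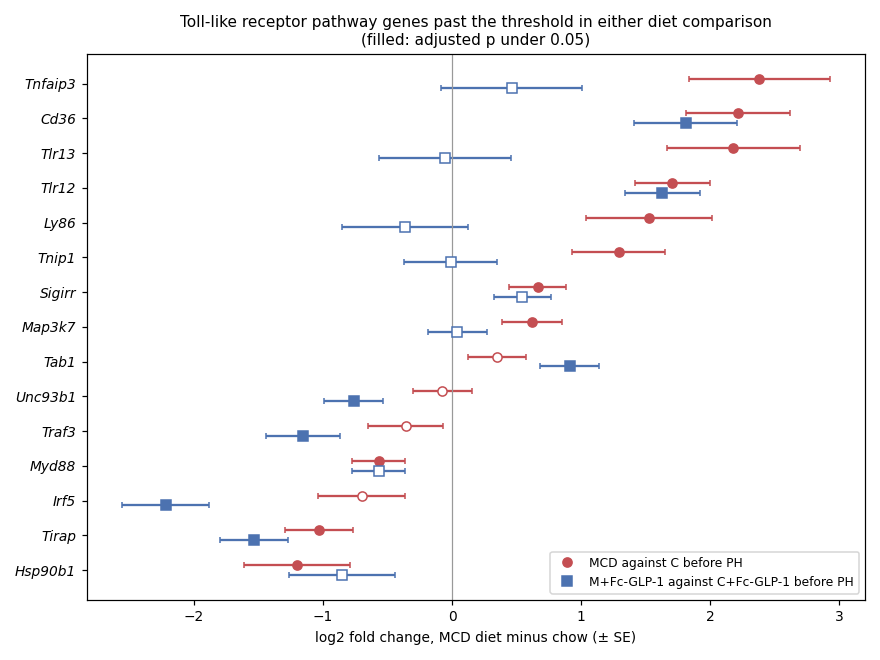
Log2 fold change (x, MCD diet minus chow, ± SE) of the 15 pathway genes (y) past the threshold in either diet comparison before PH, without (circles) and with (squares) Fc-GLP-1. Filled symbols passed an adjusted p under 0.05, and Tlr12, Cd36 and Tirap are filled in both.

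Across the 32 arrays the genes whose signal ran most like each receptor were found as a description. The correlation mixes differences between groups with those within them and shares the scaling of each array, so r over deviations from the group means is given second. For Tlr2 they were Ccl2, a monocyte chemokine (r = 0.92, and 0.87 within groups), P2ry6 (0.89 and 0.87) and Selplg (0.89 and 0.85). For Tlr1 they were Wdfy4 (0.91 and 0.85), Ms4a6c (0.91 and 0.89) and Bcl2a1d (0.90 and 0.83), and for Tlr6 Vav1 (0.90 and 0.77), Ms4a8a (0.85 and 0.64) and Clec4n (0.84 and 0.60). Cd14 ran most like Ms4a4a (0.92 and 0.87), S100a11 (0.90 and 0.90) and Timp1 (0.90 and 0.85). Tlr4 ran most like Tbxas1 (0.81 and 0.81), Clec4a3 (0.80 and 0.81) and Tmem229b (0.79 and 0.72).

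Tlr5 and Tlr9 ran with other genes. Tlr5 was most like Odf3 (0.80 and 0.75), Slc12a7 (0.79 and 0.68) and Lrrc29 (0.75 and 0.48). Tlr9 was most like A430017K17 (0.94 and 0.91), 9330175M20Rik (0.94 and 0.96) and Gm14151 (0.93 and 0.93), none of which is a named immune gene, and its r with the B cell marker Cd79a was 0.82 (0.76 within groups). Among the members themselves, Tlr1 had r = 0.78 with Tlr2 (0.81 within groups), 0.78 with Tlr6 (0.53) and 0.79 with Cd14 (0.71), while Tlr9 had r = -0.57 with Tlr1 and -0.62 with Cd14. For Tlr7 the nearest gene with a symbol was Il2rg (0.80 and 0.66), and the other two were transcripts without one.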

How the data were processed

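Liver RNA was labelled with Cy3 and hybridized to Agilent SurePrint G3 mouse 8x60K arrays. Per the file headers, Feature Extraction 10.7.3.1 gave background-subtracted intensity values, deposited by the authors without scaling between arrays. The deposited log2 values of the series, normalized by the authors separately at each time with limma, served as an alternative. The array design places probes on mm9.

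From the intensities, log2 minus each array's 75th percentile over 59305 non-control spots was computed, spots of a probe were averaged without outlier flags (426 probes dropped), and a probe was kept where all 4 arrays of some group had it well above background (28937 probes). Each of 21073 genes was represented by its brightest such probe, and 27656 probes were named by RefSeq accession. Differences were tested with limma 3.58.1 in R 4.3.3 over 8 groups, 12 contrasts and 3 interactions, adjusted over all genes by Benjamini-Hochberg at 0.05. The method was tested on simulated data. The number of arrays limits precision. In the main fit, p-values rest on the spread between mice within groups, pooled over the 8 groups of 4.

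Named were the 10 members, the 3 genes most correlated with each and at most 5 pathway genes in each direction. The first markers of each list and further markers set beside a result were also named. Members and lists were chosen with earlier results of these data known. Markers of T and NK cells, dendritic cells, stellate cells, cholangiocytes, erythroid cells and endothelium were also measured. Of them 3, 3, 2, 0, 1 and 1 of 5, 6, 6, 4, 3 and 7 tested passed the threshold in MCD against C before PH. Over all genes 26.4% passed. Among the T and NK cell markers, Cd4 (-2.66) and Cd3e (-1.12) fell and Klrb1c (1.45) rose. Alternatives were other scalings, normexp (offset 50) with quantile normalization, the authors' values, no dim filter, probe means, only the arrays compared, a replicate block and each array left out.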

Additional observations from a re-analysis of the deposited data

Results flagged for a closer look

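Single arrays far from the other three of their group, by the gap to the nearest array over the range of the group, were found for 6 of 64 combinations of gene and group, where chance alone gives about 1 in 20. For Cd14 it was C after PH replicate 1, with a gap of 0.87 of the range. For Tlr1 they were C+Fc-GLP-1 after PH replicate 1 (0.92) and MCD after PH replicate 1 (0.95), both above their group. For Tlr5 it was C before PH replicate 4 (0.83), below its group. For Tlr6 (0.96) and Tlr9 (0.83) it was M+Fc-GLP-1 after PH replicate 4, below the group for both genes.

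The diet by drug interaction of Tlr2 before PH passed the threshold, at -2.61 on the log2 scale. The call was lost under 11 of 25 alternatives, and the limma adjusted p-values of the 25 ran from 0.0105 to 0.112.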

How the results depend on the processing

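The counts of the 8 genes called changed with the processing as follows. With arrays centred on their median, 1 was called in M+Fc-GLP-1 against MCD before PH, 1 in the diet comparison under the drug before PH and 2 in the interaction before PH. With normexp and quantile normalization, 0 were called in MCD against C after PH and 0 in the interaction before PH, and 1 in MCD after against before PH. The authors' values gave 0 and 0 in the first of these pairs. Without the filter on dim probes the same pair gave 0 and 0, and M+Fc-GLP-1 against MCD before PH gave 1. The mean over a gene's probes gave 1 for that comparison and 2 in the interaction. A fit on only the arrays compared gave 3 there, 2 in the interaction, 2 in MCD over time, 0 in C over time and 0 in MCD against C after PH. Leaving out both chow arrays numbered 1 after PH, chosen after seeing the data, gave 2 in each diet comparison after PH and 0 in C over time.

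With 1 array left out, 3 to 5 were called in MCD against C before PH, 0 to 4 in C over time, 0 to 2 in the interaction before PH and 0 to 2 in MCD against C after PH. The cause of these changes was not tested. Tlr6 and Tlr5 were called in MCD against C before PH under all 17 alternatives, with log2 fold changes of 0.78 to 2.96 for Tlr6 and adjusted p-values of at most 0.0251 for Tlr5. Median centring turned the split of genes called there from 2305 higher and 3266 lower to 4207 and 1266.

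Replicate numbers were not taken to pair the samples, since no label names an animal. Same-numbered arrays before and after PH had a mean residual correlation of 0.0126, other pairs -0.00403, and within 1 time the lowest was -0.22. With the number as a replicate block, 1 gene was called in M+Fc-GLP-1 against MCD before PH (Tlr6, -1.63, adjusted p = 0.0446) and 2 in the interaction before PH, and Cd14 in MCD against C before PH reached an adjusted p of 0.0451. Signal over background limits Tlr3, Tlr6 and Tlr8 most.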
